A study of Mus musculus with 12 samples.

Results

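A set of 9 genes that build or mark the B cell antigen receptor system were followed across the sorted cells of the mouse glomerulus. They are *Cd79a*, *Cd79b*, *Ms4a1*, *Cd22*, *Btk*, *Blnk*, *Stap1*, *Pax5* and *Pou2af1*, and they were taken by symbol, whatever their values. All 9 were listed among the 17811 genes of the table of dim tdT glomerular endothelial cells (dim GEC). Of the 17521 genes of the table of bright tdT cells (bright GEC), 6 were members, and *Pax5*, *Cd22* and *Btk* were absent from it. The cells came from mice of the C57BL/6 strain at the age of 4 months that carried the TekCre tdTomato reporter, in which a red fluorescent protein (tdT) marks cells where the *Tek* promoter has driven Cre. Wild type mice (WT) were compared with Col4a5 -/- mice (AS), a model of Alport syndrome, a hereditary disease of the glomerular filter. Glomeruli were digested to single cells, and the sort selected size, single cells and the intensity of tdT. Each of 3 mice per genotype gave 1 dim and 1 bright library, so that 4 groups of 3 libraries were sequenced for mRNA. Tek-Cre is known, as background, to be active in blood-forming precursors as well as in endothelium.

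The antigen receptor of a B cell is a surface immunoglobulin held by a pair of signalling chains, Igα (*Cd79a*) and Igβ (*Cd79b*). When antigen binds, these chains recruit the kinase Syk, the adaptor Blnk assembles the complex in which the kinase Btk activates phospholipase Cγ2, and Stap1 is an adaptor with SH2 and PH domains that Tec family kinases phosphorylate. *Ms4a1* encodes the surface protein CD20 and *Cd22* a lectin that restrains the receptor. *Pax5* encodes the transcription factor that commits and holds the B lineage, and *Pou2af1* a coactivator that joins octamer-binding factors on B cell promoters. *Btk*, *Blnk* and *Stap1* are also known from myeloid cells, whereas *Cd79a*, *Cd79b*, *Ms4a1*, *Cd22* and *Pax5* are mainly B lineage genes.

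The libraries held 11440169 to 15074909 counts on genes. *Col4a5*, the gene targeted in AS, had 771, 439 and 877 counts in WT-dim and 51, 24 and 17 in AS-dim GEC, but 158, 69 and 78 in WT-bright against 43, 104 and 55 in AS-bright GEC, where the groups overlapped and the counts did not check the labels. The 10 endothelial genes summed to 10647 to 17576 CPM (counts relative to a library's total after TMM scaling) in the 6 bright libraries, to 681 to 1288 CPM in WT-dim and to 213 to 294 CPM in AS-dim GEC. The 5 pan-leukocyte genes (*Ptprc*, *Cd53*, *Laptm5*, *Coro1a* and *Cd52*) went the other way, with 5931 to 10735 CPM in the dim and 25.2 to 97.5 CPM in the bright libraries. The bright GEC thus carried the markers of their endothelial label, which were lower in the dim GEC, and the dim GEC carried leukocyte transcripts. In sorted bulk cells, fewer cells of a type and less RNA per cell cannot be told apart.

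The members' start regions were read to show which sequence motifs of B cell promoters they held. RefSeq promoter windows (GRCm38.p6, 250 bases before to 50 after a start) were held for 6 members, *Cd79a*, *Cd22*, *Btk*, *Blnk*, *Pax5* and *Pou2af1*. Both strands were searched for the octamer ATGCAAAT, its core TGCAAAT (which every octamer contains), the ETS motif AGGAAGT and the E-box CAGCTG, motifs that were chosen after the sequences had been seen. The octamer was in the window of *Blnk* alone, against 1.74% of all 32851 windows, its core in those of *Blnk* and *Pou2af1*, against 4.02%, the ETS motif in those of *Blnk* and *Cd79a*, against 9.35%, and the E-box in 0 of 6, against 16.3%. A match describes these letters and shows no binding. *Blnk*, the member whose values below differed most from the others, and *Pou2af1*, whose protein acts at the octamer, are shown with *Cd79a*, 5′ to 3′ on the strand of the gene, with matches in capitals. The stretches of *Blnk* and *Cd79a* lie within annotated exons (Gencode M21) and are given as 30 bases around the match. That of *Pou2af1* is the whole 250 bases upstream of its RefSeq start, which differs from the Gencode start given below (51213708).
Blnk, octamer (chr19:40994333-40994362, minus strand): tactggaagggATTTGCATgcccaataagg
Blnk, ETS (chr19:40994405-40994434, minus strand): ttgggacaaacAGGAAGTagtgctcagtca
Cd79a, ETS (chr7:24897431-24897460, plus strand): cacggctgaacAGGAAGTgaggcggagttt
Pou2af1, octamer core (chr9:51213440-51213689, plus strand): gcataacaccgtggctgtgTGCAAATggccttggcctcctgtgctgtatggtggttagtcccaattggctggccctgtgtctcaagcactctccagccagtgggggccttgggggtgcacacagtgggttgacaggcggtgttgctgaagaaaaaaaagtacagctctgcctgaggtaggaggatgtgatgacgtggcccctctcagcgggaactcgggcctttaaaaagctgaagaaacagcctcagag

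In the dim GEC all 9 members were detected in all 6 libraries, with 96 to 6435 counts in WT and 188 to 5511 in AS. The question of AS over WT was how the genes of this system differed between the genotypes within a subpopulation. No member passed the test in the dim GEC. The count was 0 of 9 at an adjusted p under 0.05 (the quasi-likelihood test of edgeR, adjusted by Benjamini-Hochberg for the 14637 genes tested, is meant wherever edgeR is named alone), where 8.63% of all genes passed. At an unadjusted p under 0.05 there were 3 of 9, *Pax5*, *Cd22* and *Stap1*, against 26.3% of all genes. The estimates were above 0 for 8 members, with a median log2 fold change of 0.49, and the median over all genes was -0.02. DESeq2 and edgeR's likelihood ratio test also called 0 of the 9. The share of all genes that passed rested on single libraries, since 0 passed without AS-dim replicate 1, 1 without AS-dim replicate 3, 484 without AS-dim replicate 2, 786 without WT-dim replicate 1 and 800 without WT-dim replicate 2, in place of 1263.

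Neither receptor chain passed the test. *Cd79a* (ENSMUSG00000003379, chromosome 7, 24897381 to 24902197, plus strand of GRCm38, overlapped by no other gene) had 619, 1275 and 1523 counts in the WT-dim and 1334, 1564 and 1105 in the AS-dim libraries. Scaled to CPM, WT-dim replicate 1 was the lowest library, AS-dim replicates 1 and 3 lay between it and the other WT libraries, and AS-dim replicate 2 was level with the highest, at 96.5 ± 37.2 CPM in WT and 102 ± 21.9 CPM in AS (SD, n = 3 each). *Cd79b* (ENSMUSG00000040592, chromosome 11, 106311341 to 106314762, minus strand, overlapped by no other gene) had 1221, 1116 and 2275 counts in WT-dim and 1539, 1460 and 879 in AS-dim GEC. WT-dim replicate 3 was its highest and AS-dim replicate 3 its lowest library, and the groups overlapped. The log2 fold changes were 0.07 (SE 0.32) for *Cd79a* and -0.42 (SE 0.32) for *Cd79b*, and edgeR gave them an adjusted p of 0.912 and of 0.455. *Cd79b* was the only member with an estimate below 0, and it stayed below 0 in all 14 alternatives (-0.65 to -0.05). Per base of merged exons, the ratio of *Cd79a* to *Cd79b* was 0.498, 1.12 and 0.658 in the WT-dim and 0.851, 1.05 and 1.23 in the AS-dim libraries, which overlapped.

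Of the surface proteins, *Ms4a1* (ENSMUSG00000024673, chromosome 19, 11249675 to 11266241, minus strand) was the member with the most counts, 2698, 2525 and 6435 in WT-dim and 4661, 5511 and 3328 in AS-dim GEC. Its highest library was WT-dim replicate 3 and its lowest WT-dim replicate 2, so that the WT libraries enclosed the AS libraries. The means of 330 ± 179 and 343 ± 95.3 CPM (SD, n = 3 each) gave a log2 fold change of 0.06 (SE 0.37, adjusted p = 0.943 by edgeR). *Cd22* (ENSMUSG00000030577, chromosome 7, 30865402 to 30880342, minus strand) had 124, 139 and 268 counts in WT-dim and 440, 509 and 227 in AS-dim GEC. AS-dim replicates 1 and 2 lay above all WT libraries and AS-dim replicate 3 did not. The log2 fold change of *Cd22* was 0.98 (SE 0.42), with an unadjusted p of 0.0461 that did not pass after adjustment (adjusted p = 0.18 by edgeR). *Ms4a1* and *Cd22* each overlap an antisense gene, and how reads were assigned to strands was not given in the sources used here.

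The signalling genes had estimates above 0. *Btk* (ENSMUSG00000031264, chromosome X, 134542336 to 134583570, minus strand, overlapped by a processed pseudogene) had 510, 246 and 425 counts in WT-dim and 564, 659 and 648 in AS-dim GEC. AS-dim replicate 1 lay below WT-dim replicate 1 once scaled to CPM, and the log2 fold change was 0.49 (SE 0.32, adjusted p = 0.372 by edgeR). *Blnk* (ENSMUSG00000061132, chromosome 19, 40928927 to 40994535, minus strand) had 96, 359 and 269 counts in WT-dim and 519, 539 and 388 in AS-dim GEC. WT-dim replicate 1 stood low, and WT-dim replicate 2 and AS-dim replicate 3 were equal at 30.3 CPM. Its log2 fold change was 0.84 (SE 0.42, adjusted p = 0.256 by edgeR). *Stap1* (ENSMUSG00000029254, chromosome 5, 86071746 to 86106125, plus strand, overlapped by an snRNA gene) had 1414, 1190 and 1346 counts in WT-dim and 2803, 1757 and 2332 in AS-dim GEC. It was the only member whose groups did not overlap, which 31.2% of all genes also showed, and it varied least, with 113 ± 12.6 CPM in WT and 173 ± 26.7 CPM in AS (SD, n = 3 each). Its log2 fold change of 0.61 (SE 0.20, unadjusted p = 0.0137) had the lowest adjusted p of the members, 0.09 by edgeR, and 0.0566 to 0.508 over 14 alternatives.

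For the nuclear proteins, *Pax5* (ENSMUSG00000014030, chromosome 4, 44524757 to 44710487, minus strand) had 110, 131 and 217 counts in WT-dim and 534, 370 and 188 in AS-dim GEC. AS-dim replicates 1 and 2 were the highest libraries, and AS-dim replicate 3 fell below WT-dim replicate 3 in CPM. Its estimate was the largest of the 9, a log2 fold change of 1.07 (SE 0.42, unadjusted p = 0.0348, adjusted p = 0.153 by edgeR). *Pax5* overlaps 4 annotated genes, a miRNA and 3 on the other strand. *Pou2af1* (ENSMUSG00000032053, chromosome 9, 51213708 to 51240080, plus strand, overlapped by a sense intronic gene) had 1236, 956 and 1855 counts in WT-dim and 2587, 2127 and 1244 in AS-dim GEC. AS-dim replicate 3 lay between the WT libraries, and the log2 fold change was 0.38 (SE 0.31, adjusted p = 0.496 by edgeR).

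**Figure D1:**
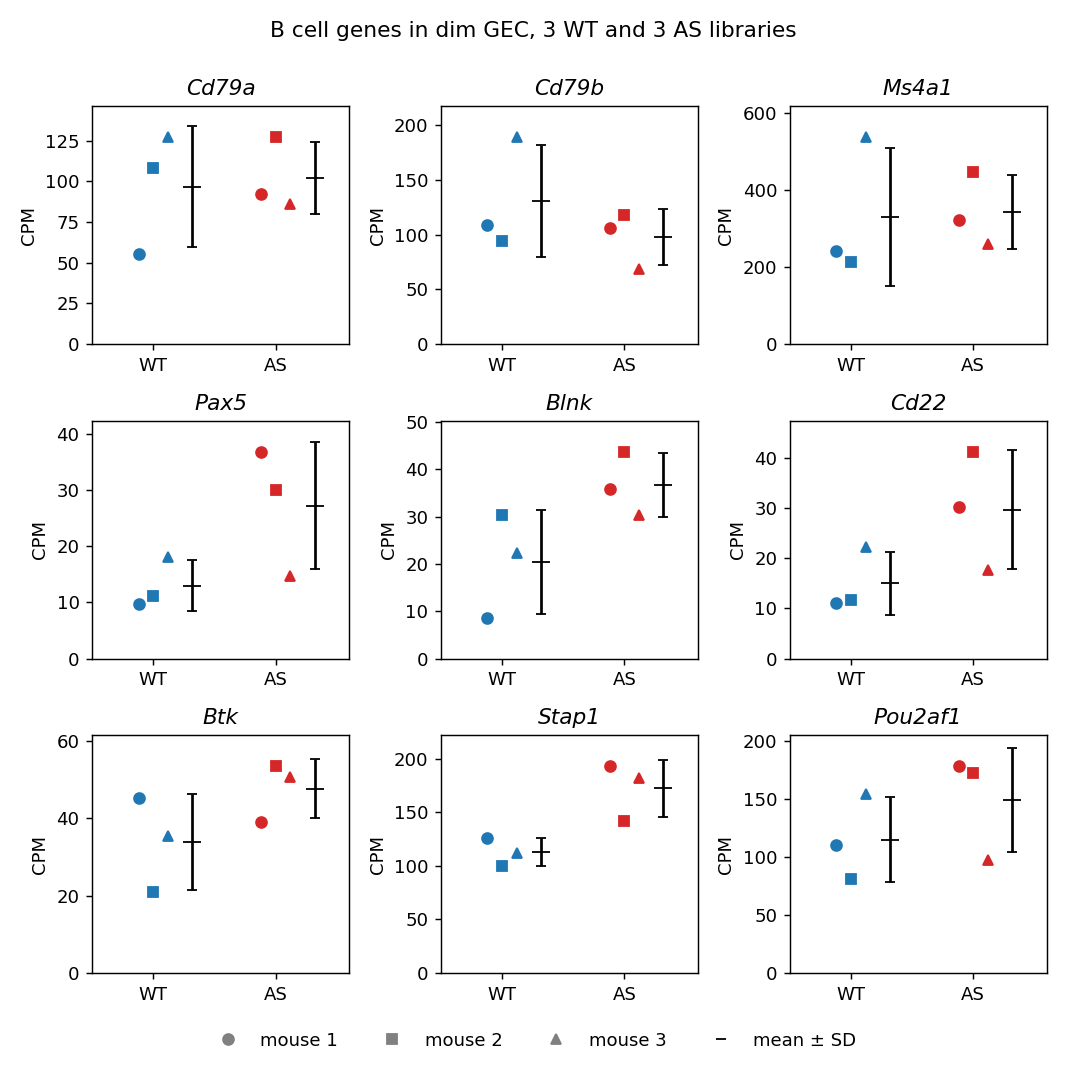
Level of each of the 9 genes in the dim GEC, in CPM on linear axes from 0, with 1 point per library (circle, square and triangle for mice 1, 2 and 3, which are different mice in WT and AS) and the mean ± SD of 3 libraries beside the points. Only for *Stap1* did every AS library lie above every WT library, and WT mouse 3 and AS mouse 3 were the highest and lowest of their groups for 6 and 7 of the genes.

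**Figure D2:**
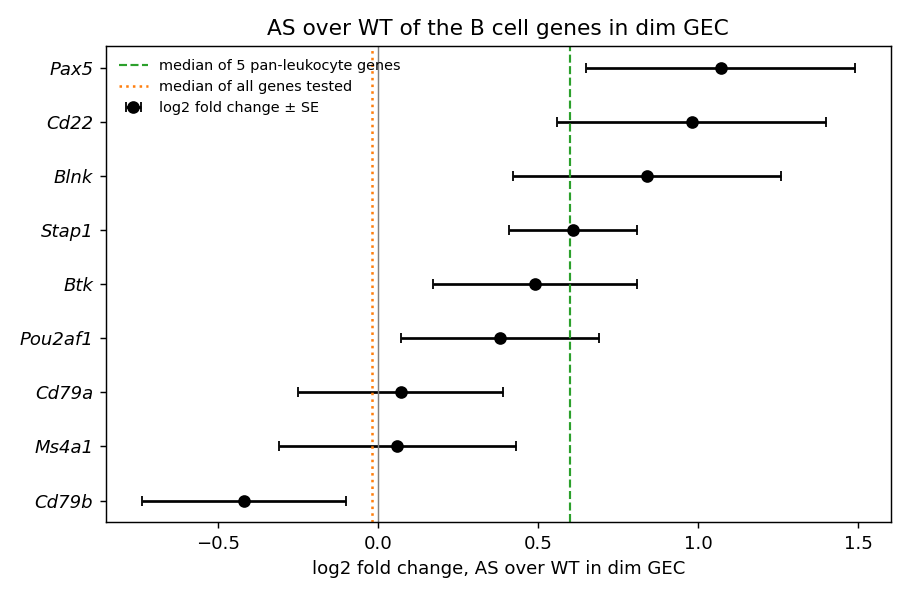
Log2 fold change of AS over WT in the dim GEC for the 9 genes (points, bars ± SE), with the median of the 5 pan-leukocyte genes at 0.60 (dashed) and of all genes tested at -0.02 (dotted). The estimates ran from -0.42 for *Cd79b* to 1.07 for *Pax5*.

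The spread of the members had a pattern by library. In WT-dim GEC replicate 3 was the highest of its group for 6 of the 9 genes and the lowest for 0, and in AS-dim GEC replicate 3 was the lowest for 7 and the highest for 0. Leaving out 1 library at a time moved the estimates of *Cd79a* between -0.21 and 0.33 and of *Ms4a1* between -0.23 and 0.60, so that neither had a stable sign. *Pax5* stayed between 0.75 and 1.39, *Cd22* between 0.63 and 1.39 and *Stap1* between 0.50 and 0.70. Over the 6 dim libraries, 30 of the 36 pairs of members had a Pearson correlation of log2 CPM above 0, with a median of 0.476 and a range of -0.467 to 0.944. *Cd22* (0.981), *Pax5* (0.925), *Pou2af1* (0.903) and *Ms4a1* (0.840) followed the mean of the 9 most closely, and *Btk* (0.465), *Stap1* (0.446) and *Cd79b* (0.410) least. These values describe 6 libraries of 2 genotypes and carry no test.

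The members were also set against the leukocyte transcripts of the same library. The 5 pan-leukocyte genes had estimates of AS over WT above 0, with a median log2 fold change of 0.60, and 0 of 5 passed the adjustment, though 4 had an unadjusted p under 0.05 (*Ptprc*, the common leukocyte antigen, 0.60, SE 0.19, adjusted p = 0.091 by edgeR). Set against them, all members together had 97.8, 113 and 123 counts per 1000 pan-leukocyte counts in WT-dim and 99.1, 118 and 75.2 in AS-dim GEC, means of 111 ± 12.6 and 97.5 ± 21.5 (SD, n = 3 each). The groups overlapped. On this scale *Cd79b* had 14.9, 15.9 and 19.1 in WT-dim and 10.2, 11.9 and 6.39 in AS-dim GEC, a ratio of means of 0.571, and its groups did not overlap, which held for 1 of the 9 members and for 31.9% of all genes on this scale. *Stap1* had 17.2, 16.9 and 11.3 in WT against 18.5, 14.3 and 17 in AS, and its groups overlapped on it. The ratios of the other members ran from 0.772 for *Cd79a* to 1.58 for *Pax5*. The part of the leukocyte level in the members' differences was not tested.

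**Figure D3:**
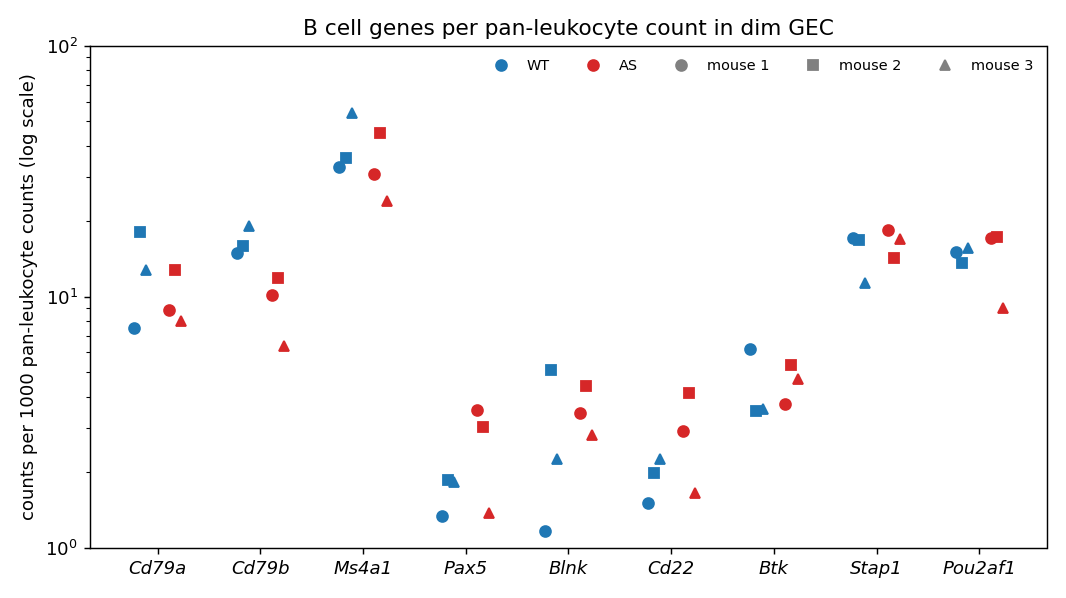
Counts of each of the 9 genes per 1000 counts on 5 pan-leukocyte genes in the dim GEC, on a log axis, with 1 point per library (blue WT, red AS, shapes for mice 1 to 3). The groups overlapped for 8 of the 9 genes, and for *Cd79b* the WT libraries lay between 14.9 and 19.1 and the AS libraries between 6.39 and 11.9, where 31.9% of all genes did not overlap.

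Ordered by CPM per kilobase of merged exons, the members formed a graded series in the dim GEC. In WT-dim, *Cd79b* came first at 91.4 ± 35.9, then *Cd79a* at 66.2 ± 25.5, *Ms4a1* at 53.3 ± 29 and *Pou2af1* at 45.1 ± 14.6 (SD, n = 3 each), and each of these neighbours overlapped with the next. *Stap1* at 18.1 ± 2.03, *Btk* at 10.7 ± 3.93 and *Blnk* at 3.41 ± 1.84 followed, each separate from the gene before it in all 3 libraries. *Blnk* and *Cd22* (2.98 ± 1.25) overlapped, and *Pax5* was last at 1.47 ± 0.504. In AS-dim GEC the same 4 genes led, with *Cd79a* at 69.8 ± 15.1, *Cd79b* at 68.3 ± 18.1, *Pou2af1* at 58.6 ± 17.8 and *Ms4a1* at 55.4 ± 15.4, and their ranges overlapped. *Stap1* (27.8 ± 4.3), *Btk* (15.1 ± 2.45), *Blnk* (6.11 ± 1.12), *Cd22* (5.91 ± 2.34) and *Pax5* (3.07 ± 1.28) came in the same order as in WT.

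Further B cell genes were detected in the dim GEC as well. Of 21 further B cell identity genes, all 21 were listed and tested, 0 passed the test of AS over WT in either direction, the median log2 fold change was 0.36, and 6 had an unadjusted p under 0.05. The 2 with the highest levels were *Fcrl1*, a receptor-like protein of mature B cells, at 264 ± 108 CPM in WT and 290 ± 30.9 CPM in AS (log2 fold change 0.14, SE 0.28), and *Bach2*, a transcriptional repressor of plasma cell fate, at 195 ± 66.8 and 246 ± 63.4 CPM (0.33, SE 0.29; SD, n = 3 each). Of 6 immunoglobulin constant genes 0 passed. *Ighm*, the μ heavy chain, had 822 ± 216 CPM in WT and 1162 ± 248 CPM in AS, and *Ighd*, the δ heavy chain, 536 ± 126 and 556 ± 160 CPM (SD, n = 3 each). Plasma cell genes gave 0 of 7 tested, with *Xbp1*, a transcription factor of secretory cells, at 267 ± 7.71 CPM in WT and 327 ± 57.6 CPM in AS, and *Sdc1*, a surface proteoglycan that epithelia also carry, at 142 ± 64.6 and 108 ± 6.49 CPM (SD, n = 3 each). Of 5 early B cell genes, *Vpreb1*, *Igll1*, *Rag1* and *Rag2* were listed in neither table, and *Dntt* had 5, 4 and 2 counts in WT-dim and 24, 21 and 14 in AS-dim GEC (log2 fold change 2.21, SE 0.54, adjusted p = 0.0336 by edgeR).

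Of 21 genes that carry the receptor signal onward, 3 rose in AS-dim GEC, 0 fell and 18 did not pass. Of all 14637 genes tested, 8.63% passed, 324 of them higher and 939 lower. The 3 calls of this list, that of *Dntt* and those of the lists named next were lost without AS-dim replicate 1, where 0 genes passed. Without AS-dim replicate 3, 1 gene passed and it was lower, so that every rise named here was lost there too. The difference from the members was not tested. The list had 20 estimates above 0 and a median log2 fold change of 0.65. *Plcg2*, the phospholipase downstream of Btk and Blnk, rose from 144 ± 26.3 to 291 ± 12.7 CPM, and *Syk*, the kinase that binds Cd79a and Cd79b, from 141 ± 44.7 to 302 ± 37.7 CPM (SD, n = 3 each). *Pik3cd*, a catalytic subunit of phosphoinositide 3-kinase, rose from 237 ± 34.7 to 385 ± 35.1 CPM. The log2 fold changes were 1.02 (SE 0.19), 1.10 (SE 0.26) and 0.70 (SE 0.18), and edgeR gave adjusted p-values of 0.024, 0.039 and 0.0489. These 3 genes are also used by myeloid cells. In the same libraries 4 of 9 macrophage and monocyte genes rose and 0 fell, among them *Csf1r*, the receptor of macrophage growth factor, from 140 ± 26.1 to 332 ± 45 CPM, and the list summed to 4596 to 8533 CPM in WT and 9656 to 12599 CPM in AS. Of the other lists, 0 of 10 T cell and 0 of 7 NK cell genes passed, 7 of 10 endothelial and 4 of 8 proximal tubule genes fell with 0 higher, 3 of 6 podocyte genes fell and 1 rose, 0 of 6 mesangial and mural genes passed, and 1 of 4 tested plasmacytoid dendritic cell genes fell (*Klk1*, which the kidney tubule also makes). Their part in the values of the members was not tested.

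The genes most like the members across the 6 dim libraries were in none of the lists. Ranked by correlation with the mean of the 9 among 12853 other genes with a mean log2 CPM above 1, the first 8 were *AI467606*, *Maml1*, *AC157650.3*, *Atf7ip*, *Pafah1b2*, *Angel2*, *Csnk2a1* and *Ccdc50*, with r of 0.976 to 0.994. By list, the median correlation was 0.774 for the pan-leukocyte genes, 0.742 for receptor signalling, 0.709 for B cell identity, 0.560 for macrophage and monocyte and 0.537 for immunoglobulin constant genes. For the 9 members, each of them part of that mean, it was 0.630 (0.410 to 0.981). It was 0.410 for plasmacytoid dendritic, 0.245 for T cell, 0.151 for plasma cell and -0.322 for NK cell genes, and -0.327 for podocyte, -0.418 for proximal tubule, -0.723 for endothelial and -0.732 for mesangial and mural genes. With 6 libraries of 2 genotypes, the values are a description.

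Bright over dim asked how the subpopulations of the same genotype differed. Of the 6 members listed in both tables, *Ms4a1*, *Cd79b* and *Blnk* also passed the filter on low counts within the bright libraries, and these 3 fell from dim to bright in WT and in AS (edgeR), where 11.5% of 14247 genes in WT and 26.5% of 14052 genes in AS passed in this direction. *Cd79a*, *Stap1* and *Pou2af1* entered the test only through the dim libraries, where they were high, so that a fall was the one call open to them. They too passed, and their values are given as a description. For *Ms4a1*, *Cd79b* and *Blnk*, every bright library lay below every dim library of the genotype, as for 19.7% of all genes in WT and 30.5% in AS. The same held for *Cd79a*, *Stap1* and *Pou2af1*, which their entry through the dim libraries favoured. The 6 genes summed to 7284, 7421 and 13703 counts in the WT-dim and 105, 50 and 89 in the WT-bright libraries, and to 13443, 12958 and 9276 in the AS-dim and 45, 84 and 50 in the AS-bright libraries. *Ms4a1*, *Cd79b* and *Blnk* passed in each of the 14 alternatives in both genotypes.

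*Cd79a* had 2, 10 and 3 counts in WT-bright and 7, 26 and 4 in AS-bright GEC. Its log2 fold change was -8.10 (SE 0.61) in WT and -6.91 (SE 0.41) in AS. *Cd79b*, its partner chain, had 9, 5 and 31 counts in WT-bright and 10, 6 and 19 in AS-bright GEC. In both genotypes replicate 3 was the highest, and the log2 fold changes were -6.98 (SE 0.58, adjusted p = 4.75e-05) and -6.92 (SE 0.39, adjusted p = 3.15e-07 by edgeR). *Ms4a1*, at 2525 counts or more in every dim library, had 42, 7 and 6 in WT-bright and 23, 30 and 11 in AS-bright GEC, with log2 fold changes of -8.03 (SE 0.70) and -7.88 (SE 0.36).

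*Stap1* had 1, 11 and 11 counts in WT-bright and 2, 3 and 6 in AS-bright GEC, with log2 fold changes of -7.71 (SE 0.49) in WT and -9.38 (SE 0.33) in AS. *Pou2af1* had 8, 3 and 6 counts in WT-bright and 3, 6 and 7 in AS-bright GEC, a level that did not reach 10 counts in any bright library. Its log2 fold changes were -8.17 (SE 0.48) in WT and -8.65 (SE 0.42) in AS. For these 5 genes the level in a bright library was 0.051% to 1.12% of the dim level of the same mouse in WT and 0.0735% to 1.97% in AS.

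*Blnk*, the adaptor between Syk and Btk, was the exception in WT. It had 43, 14 and 32 counts in the WT-bright libraries and 0, 13 and 3 in the AS-bright libraries, where a count of 0 allows up to 3. In WT the bright level was 32.3%, 3.29% and 9.28% of the dim level of the same mouse, above the 0.051% to 1.12% of the other 5 genes in every mouse, and the log2 fold change was -3.33 (SE 0.64, adjusted p = 0.00503 by edgeR). In AS it was 0% in mouse 1, 1.9% in mouse 2 and 0.705% in mouse 3, and the log2 fold change was -6.62 (SE 0.50, adjusted p = 1.51e-06 by edgeR). The high share in WT mouse 1 combined the highest bright count with the lowest dim count, 96, of the gene. Of the 2 genes of the plasmacytoid dendritic list in both tables, *Ccr9*, a chemokine receptor, had log2 fold changes of -3.04 in WT and -7.12 in AS. *Klk1* went the other way, with -2.43 in WT and -0.92 in AS. Its counts were 3450, 1326 and 2101 in WT-bright and 115, 1762 and 126 in AS-bright GEC. The 8 proximal tubule genes summed to 26374, 4197 and 6681 counts in WT-bright and to 854, 5163 and 625 in AS-bright GEC. Their median log2 fold change of AS over WT was -2.57 in bright and -4.20 in dim GEC, against -2.45 and 0.84 for *Blnk*. The part of tubule transcripts in the counts of *Blnk* was not tested.

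**Figure D4:**
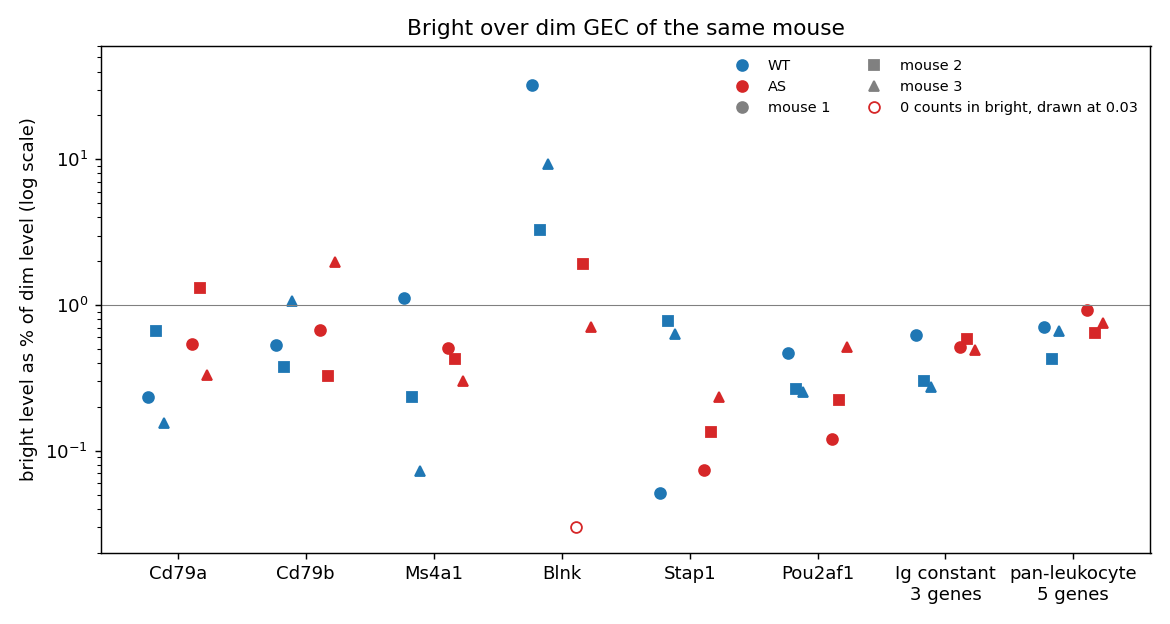
Level in the bright GEC as a percent of the level in the dim GEC of the same mouse, on a log axis, for the 6 members listed in both tables and for the sums of 3 immunoglobulin constant and 5 pan-leukocyte genes (blue WT, red AS, shapes for mice 1 to 3). All but *Blnk* lay under 2%, and *Blnk* lay at 3.29% to 32.3% in WT and at 0% (open circle, drawn at 0.03) to 1.9% in AS.

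The share that the members kept in the bright GEC was set beside that of other leukocyte transcripts. The 6 members summed to 1.04%, 0.568% and 0.507% of the dim level in the 3 WT mice and 0.345%, 0.51% and 0.492% in the 3 AS mice. Without *Blnk*, left out after its values were seen, they summed to 0.622%, 0.43% and 0.331% in WT and 0.359%, 0.45% and 0.482% in AS. The 3 immunoglobulin constant genes listed in both tables had 0.272% to 0.624% in WT and 0.494% to 0.583% in AS, and the 5 pan-leukocyte genes 0.427% to 0.703% and 0.639% to 0.928%. The 3 T cell genes had 0.39% to 2.89% in WT and 2.41% to 2.6% in AS. Of their 112, 73 and 17 counts in WT-bright GEC, *Lck* had 81, 67 and 13. Of their 97, 119 and 95 counts in AS-bright GEC, it had 72, 99 and 84. The log2 fold change of *Lck*, bright over dim, was -2.34 in WT and -2.86 in AS. That of *Cd2* was -7.97 and -7.64, and that of *Cd8a* -7.54 and -7.24. The 7 macrophage and monocyte genes had 2.55% to 3.18% in WT and 2.36% to 3.06% in AS. *Cd14* had 144 ± 40.7 of their 145 to 226 CPM in WT-bright GEC (SD, n = 3). The 2 NK cell genes had 0% to 2.22% in WT and 0.452% to 0.56% in AS. Other lists kept more, with 10.5% to 21.3% in WT and 12.5% to 19.9% in AS for 14 B cell identity genes. *Ebf1* had 145 ± 26.5 of their 162 to 241 CPM in WT-bright GEC (SD, n = 3). The 19 receptor signalling genes had 26% to 33.5% in WT and 24.3% to 28.9% in AS. Over both genotypes, 2 plasmacytoid dendritic genes had 5.37% to 49.1% and 4 plasma cell genes 53.5% to 114%. The differences between these shares were not tested. Their part in the members' counts in the bright GEC was not tested. Of 14 B cell identity genes in both tables, 7 passed the filter within the bright libraries, and 6 of these fell in WT and 6 in AS. *Ebf1*, a transcription factor of B cells that stromal and vascular cells also express, was the 1 of them higher in AS-bright GEC (107 ± 30.6 in dim and 184 ± 11.9 CPM in bright). Of 15 receptor signalling genes that passed that filter, 11 fell in WT and 13 in AS, among them *Syk* from 141 ± 48.3 to 0.977 ± 0.285 CPM in WT (SD, n = 3 each), and *Rasgrp3*, an exchange factor of Ras that endothelium also uses, rose in both (log2 fold change 3.07, SE 0.37, and 4.05, SE 0.26).

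In the bright GEC, AS over WT could be tested for 3 members, *Ms4a1*, *Cd79b* and *Blnk*, since *Cd79a*, *Stap1* and *Pou2af1* did not pass the filter on low counts. None of the 3 passed (0 of 3, edgeR), where 0.452% of 14396 genes passed. At an unadjusted p under 0.05 there was 1 of 3, *Blnk*, against 21.8% of all genes. The groups of *Blnk* did not overlap, as for 24.5% of all genes, with 2.02 ± 0.968 CPM in WT and 0.351 ± 0.438 CPM in AS (SD, n = 3 each), and its log2 fold change was -2.45 (SE 0.80, unadjusted p = 0.0107, adjusted p = 0.125 by edgeR). DESeq2 gave an adjusted p for *Ms4a1* and *Blnk* and called neither, and edgeR's likelihood ratio test called *Blnk* (adjusted p = 0.012), and over 14 alternatives its adjusted p ran from 0.012 to 0.411. *Ms4a1* (log2 fold change 0.22, SE 0.73) and *Cd79b* (-0.35, SE 0.73) had standard errors larger than their estimates.

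The test of whether AS over WT differed between bright and dim GEC called 0 of 6 members (edgeR), where 3.77% of 15084 genes passed. Of the 6, *Cd79a*, *Stap1* and *Pou2af1* entered this test through their dim counts, and with 1 to 26 counts in the bright libraries they tell little of a difference between the genotypes there. With the mouse as a block 877 genes passed in place of 569, and again 0 of 6 members. At an unadjusted p under 0.05 there was 1 of 6, *Blnk*, against 18.5% of all genes. The difference for *Blnk* was -3.24 on the log2 scale (SE 1.01, unadjusted p = 0.00612, adjusted p = 0.0925 by edgeR), that is, an estimate above 0 in the dim GEC (0.84) and below 0 in the bright GEC (-2.45). It passed in 2 of 19 alternatives, DESeq2 (adjusted p = 0.00958) and edgeR's likelihood ratio test (adjusted p = 0.0122), and ran from -5.05 to -2.69. The differences for *Cd79b* (0.11, SE 0.87) and *Ms4a1* (0.21, SE 0.85) were smaller than their errors. Of the 2 plasmacytoid dendritic genes, *Ccr9* had a difference of -4.04 (SE 0.74, adjusted p = 0.0104 by edgeR) and *Klk1* one of 1.57 that did not pass, and their part in the values of *Blnk* was not tested.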

How the data were processed

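RNA was sequenced from dim and bright tdT GEC of 3 WT and 3 AS mice (poly-A mRNA libraries, 12 in all, grouped by the sample titles). Per the labels and the methods of the study, reads were trimmed, aligned with STAR 2.6.0c to GRCm38.p5 and counted per gene, and the authors deposited 1 table per subpopulation, with raw counts per gene and library. The deposited RPKM values, which the authors computed from those counts and a gene length, were not used, nor were the deposited columns of the authors' own AS over WT comparison (log2 fold changes, p-values and FDR). The deposited length was 1.53 times the merged exon length at the median, so levels per length used merged exons of Gencode M21. The 92 ERCC spike-in rows of each table (0.0286% to 0.282% of counts) were left out. Replicates came from separate mice, and none of 12 replicate pairs agreed within sampling noise (29.5 to 104 times the chi-square that such noise gives).

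Counts were filtered with filterByExpr, scaled by TMM and tested with edgeR 4.0.16 in R 4.3.3 (quasi-likelihood test, Benjamini-Hochberg adjustment over all genes tested, threshold 0.05). AS over WT used the 6 libraries of a table. Bright over dim, and the difference of AS over WT between subpopulations, used the 15768 genes in both tables. SE is the log2 fold change divided by the square root of F. CPM are on the TMM scale. The script was tested on simulated data. Depth was 11440169 to 15074909 counts per library, and a count of 0 allows up to 3 (counting error only). Dim and bright libraries of a genotype with the same number share a mouse in the labels. Their deviations from the group means correlated at 0.102 to 0.274 in WT and 0.0796 to 0.385 in AS, against means of -0.0985 and -0.104 for other pairs. Alternatives were RLE scaling, library sizes alone, no filter, DESeq2 1.42.0, edgeR's likelihood ratio test, a replicate block, all 12 libraries in one fit and leaving out each library. The version 3 quasi-likelihood fit of edgeR was added after seeing the data.

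All 9 members are named. From other lists, up to 4 genes with the lowest p that passed per direction are named, or the 2 with the highest level where none passed. Further plasma cell genes are named because those 2 were also present in the bright GEC, a choice made after their values were seen. The members and lists were chosen with earlier results of these data known.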

Additional observations from a re-analysis of the deposited data

How the results depend on the processing

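Of 447 refits of single members, 424 kept their direction and their side of the threshold, 3 passed where the test reported had not and 20 changed sign, all of genes that passed in neither setting. Calls of members for bright over dim (3 of the 3 that passed the filter in bright GEC, in WT and in AS) and for AS over WT in dim GEC (0 of 9) were the same in each alternative run, except that all 12 libraries in one fit tested 6 of the 9 (0 called), without *Pax5*, *Cd22* and *Btk*. In bright GEC the likelihood ratio test called 1 member, and for the difference between subpopulations DESeq2 and the likelihood ratio test called 1 each, *Blnk* in all 3 cases. Without 1 library at a time, estimates that changed sign ran, for AS over WT in dim GEC, from -0.21 to 0.33 (*Cd79a*, negative without WT-dim replicate 1 or AS-dim replicate 2) and -0.23 to 0.60 (*Ms4a1*, negative without WT-dim replicate 1 or 2 or AS-dim replicate 2), and in bright GEC from -0.93 to 0.70 (*Cd79b*) and -0.23 to 1.69 (*Ms4a1*). For the difference between subpopulations they ran from -0.45 to 1.19 (*Cd79b*, also -0.06 with library sizes alone, a scaling that moved the median of all genes from 0.13 to -0.03) and -0.34 to 1.64 (*Ms4a1*). The cause was not tested.

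The number of all genes called, the background of the members' counts, moved more. For AS over WT in dim GEC (1263) it was 2213 with DESeq2, 494 with the replicate block, 582 with the version 3 fit, 2106 with all 12 libraries in one fit and 0 to 1825 without 1 library (0 without AS-dim replicate 1, 1 without AS-dim replicate 3). In bright GEC (65) it was 39 without the filter, 1117 with DESeq2, 897 with the likelihood ratio test, 16 with the replicate block, 0 with the version 3 fit, 139 with all 12 libraries and 0 to 281 without 1 library. For the difference (569) it was 1186, 1092 and 877 with DESeq2, the likelihood ratio test and the block, and 252 to 857 without 1 library. WT and AS libraries with the same number share only the number (correlations of -0.115 to 0.0492 in dim and -0.151 to 0.124 in bright GEC), and the replicate block changed no call of a member. Counts of 0 to 43 per bright library limit what can be said of members there.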
